A study of Mus musculus with 2 samples.

Results

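The genes described here are 10 genes of the actin and thymosin cytoskeleton, taken by symbol from the count tables: Actb, Actg1, Tmsb4x, Tmsb10, Pfn1, Cfl1, Arpc1b, Arpc2, Arpc3 and Coro1a. All 10 were listed in both tables, which together named 30457 genes. Single spleen cells were profiled on BD Rhapsody, a nanowell system in which each captured cell shares a well with a bead that carries barcoded oligo-dT primers. The cells were pooled from 3 spleens of female C57BL/6J mice that carried subcutaneous LLC tumours, a transplantable lung carcinoma line, from 500000 injected cells. All mice were 10 weeks old, were given 200 μg of anti-CD4 antibody on day 5 and on day 9, and were killed on day 12, so no untreated or tumour-free group exists. The pooled cells were frozen, thawed and loaded (2000 cells) on 1 cartridge, and its beads were divided after cDNA synthesis. Part of the beads was amplified by TAS-Seq, which tails the cDNA with terminal transferase and stops the tail with a dideoxynucleotide, and the other part by the BD WTA kit, which uses random primers. Each method therefore has 1 library of the same pooled cells, and no difference below has a replicate check or a p-value. Differences are described by their size, by whether both libraries show them, and by the spread among cells, which are not replicates.

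Actin subunits move between a pool of free monomers and filaments that push the cell membrane and carry tension. Actb and Actg1 encode the cytoplasmic beta and gamma actins. Tmsb4x and Tmsb10 encode beta-thymosins, peptides that hold actin monomers in reserve. Pfn1 (profilin) passes monomers to growing filament ends, and Cfl1 (cofilin) severs ageing filaments. Arpc1b, Arpc2 and Arpc3 encode subunits of the Arp2/3 complex, which starts branches on filaments, with Arpc1b as the form of its subunit that prevails in blood cells. Coro1a encodes a coronin of leukocytes that binds filaments and the Arp2/3 complex. Lymphocytes use this machinery to migrate and to form contacts with other cells, and neutrophils use it to crawl and engulf.

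The coding sequences of the pairs of paralogs are shown because their likeness decides whether reads can be told apart. They were read from the GENCODE M21 transcripts (build GRCm38). The opening 60 coding bases of the actins differed at 9 positions, which are in capitals, and over all 1125 coding bases 997 were identical (88.6%).
Actb: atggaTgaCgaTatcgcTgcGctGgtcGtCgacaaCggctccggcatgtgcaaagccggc
Actg1: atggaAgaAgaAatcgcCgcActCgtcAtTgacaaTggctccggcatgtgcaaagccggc
The thymosin genes have coding sequences of 132 bases, with 40 differing positions in capitals and 92 identical ones (69.7%).
Tmsb4x: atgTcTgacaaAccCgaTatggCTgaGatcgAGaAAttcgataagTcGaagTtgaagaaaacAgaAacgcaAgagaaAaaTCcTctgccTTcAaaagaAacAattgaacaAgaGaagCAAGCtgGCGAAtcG
Tmsb10: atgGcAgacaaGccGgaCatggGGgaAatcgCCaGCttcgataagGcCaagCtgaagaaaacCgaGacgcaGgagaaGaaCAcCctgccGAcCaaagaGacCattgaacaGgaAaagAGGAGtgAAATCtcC
A gene outside the 10, Gm9844 (annotated as protein coding, chr7:24862213-24862697, plus strand), holds the Tmsb10 coding sequence with 2 differing bases of 132, in capitals.
Gm9844: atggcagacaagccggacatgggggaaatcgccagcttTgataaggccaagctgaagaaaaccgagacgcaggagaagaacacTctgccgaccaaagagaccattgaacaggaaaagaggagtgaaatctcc

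The 10 genes lie on 7 chromosomes of GRCm38 and are all annotated as protein coding. The actin genes are at chr5:142903115-142906754 (Actb, minus strand) and chr11:120345690-120348542 (Actg1, minus strand). Thymosin genes are at chrX:167207093-167209315 (Tmsb4x, minus strand) and chr6:72957347-72958748 (Tmsb10, minus strand). Pfn1 is at chr11:70651850-70654644 on the minus strand and Cfl1 at chr19:5490455-5495201 on the plus strand. The Arp2/3 genes are on the plus strand, at chr5:145114215-145130705 (Arpc1b), chr1:74236084-74268209 (Arpc2) and chr5:122391878-122414184 (Arpc3). Coro1a is at chr7:126699773-126707787 on the minus strand. Since reads were mapped to transcripts, the share of each gene's 31-base stretches that also occur in another gene was computed. It was 40.2% for Actg1, 32.0% for Tmsb10 and 23.5% for Actb, against 13.2% for both Cfl1 and Arpc1b, 5.11% for Arpc2, 0.835% for Arpc3 and 0.329% for Pfn1. None was shared for Tmsb4x and Coro1a. Actb reads were accompanied by reads on the pseudogene Gm15725 (3.98% of the Actb reads in TAS-Seq and 2.01% in BD WTA). Reads on Gm9844 came to 20.3% of the Tmsb10 reads in TAS-Seq and 11.1% in BD WTA, and reads on the pseudogene Gm3788 to 3.35% and 0.997%. The 4 pseudogenes of Actg1 with at least 1% of its reads in a library (Gm12715, Gm8399, Actg-ps1 and Gm16385) held between 1.02% and 1.54% in TAS-Seq and between 0.163% and 0.406% in BD WTA. Values below leave these reads out unless stated.

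After cells of low quality were left out, 732 TAS-Seq and 708 BD WTA cells remained, with medians of 46557 and 38426 reads per cell, and no barcode was shared between the libraries. Cells were clustered jointly without the 10 genes and without other genes of the actin pathway, and clusters were named from marker genes. This gave 399 TAS-Seq and 361 BD WTA B-like cells, 274 and 279 T-like cells, 21 and 26 NK-like cells, and 10 and 11 myeloid cells, whose cluster was led by S100a9, S100a8, Il1b, Csf3r and Mmp9 and is neutrophil-like. No other myeloid cluster met the naming rule. Each class carried its markers in both libraries: Cd79a was at 3142 CPM in TAS-Seq and 4857 CPM in BD WTA in B-like cells, and S100a8 was at 52225 and 25306 CPM in myeloid cells. Markers of other classes were low but not all at 0, as with Cd79a in T-like cells (44.5 and 20.9 CPM) and Cd3d in myeloid cells (47.6 and 139 CPM). Markers of 2 classes were found in 16 TAS-Seq and 5 BD WTA cells, with the pairing of T and NK markers not counted. Levels are given as pooled CPM, the reads of a gene per 1000000 reads of all cells of the class, and every interval is an exact 95% Poisson or binomial interval that covers counting error only, since reads were counted without molecular identifiers.

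Together the 10 genes took more of the reads in T-like than in B-like cells and most in myeloid cells. They held 2.05% of the reads of B-like cells (95% interval 2.04 to 2.05), 2.87% in T-like cells (2.86 to 2.88), 3.89% in NK-like cells (3.86 to 3.93) and 4.97% in myeloid cells (4.90 to 5.04) in the TAS-Seq library. In the BD WTA library the shares were 2.39% (2.386 to 2.401), 3.36% (3.35 to 3.37), 4.42% (4.39 to 4.46) and 6.67% (6.58 to 6.75). Both libraries gave the same order of classes, and the T-like share was 1.40 times the B-like share in each. Cells of a class spread widely around these shares: B-like cells ranged from 0.177% to 3.84% in TAS-Seq with a median of 1.99%, and T-like cells from 1.25% to 6.74% with a median of 2.85%. The lowest BD WTA myeloid cell, at 4.81%, lay above the upper quartile of the B-like and of the T-like cells of that library (3.14% and 3.92%). In TAS-Seq the classes overlapped more. Its lowest myeloid cell, at 2.096%, lay below the B-like upper quartile (2.44%) and the T-like median. The lower quartile of the TAS-Seq myeloid cells (3.31%) was just above the T-like upper quartile (3.27%). Depth differed between the classes as well, with a median of 42242 reads in B-like and 52564 in T-like TAS-Seq cells, and after each cell was thinned to 20000 reads the ratio of T-like over B-like shares was 1.37 in TAS-Seq and 1.33 in BD WTA.

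**Figure D1:**
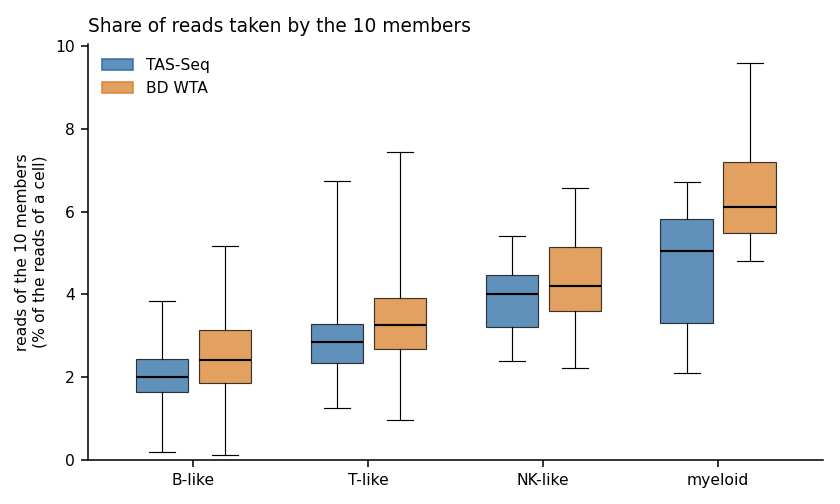
Reads of the 10 genes as a percent of the reads of each cell, by class and library (box: quartiles, line: median, whiskers: lowest and highest cell). The medians were 1.99%, 2.85%, 4.003% and 5.06% in B-like, T-like, NK-like and myeloid TAS-Seq cells, and 2.4003%, 3.26%, 4.21% and 6.12% in BD WTA cells.

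The actins shared the order myeloid, NK-like, T-like, B-like from high to low in both libraries. Pooled Actb was at 13353 CPM in myeloid, 10532 in NK-like, 5893 in T-like and 5353 in B-like TAS-Seq cells. In BD WTA cells it was at 24182, 12822, 9328 and 7489 CPM. The T-like and B-like values are close to each other: Actb per cell had quartiles of 3603 and 7023 CPM in B-like and 4014 and 7215 CPM in T-like TAS-Seq cells. Actg1 was at 3414, 1841, 1174 and 956 CPM in the same order of classes in TAS-Seq, and at 8607, 5185, 3174 and 2475 CPM in BD WTA. The reads of Actb were 5.598 times those of Actg1 in B-like, 5.02 in T-like, 5.72 in NK-like and 3.91 in myeloid TAS-Seq cells, for transcripts of nearly the same length (1920 and 1952 bases). In BD WTA cells this ratio was lower in every class, at 3.03, 2.94, 2.47 and 2.81. The balance of the actins thus differed more between methods than between lymphocyte classes.

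Thymosin genes gave opposite orders in the myeloid cells. Tmsb4x, at 21456 CPM in myeloid, 14524 in NK-like, 10469 in T-like and 7027 in B-like TAS-Seq cells, followed the actins. Its BD WTA values were 20746, 12356, 9681 and 6048 CPM. Tmsb10 was highest in T-like cells, at 5012 CPM in TAS-Seq and 2892 CPM in BD WTA. It followed at 4069 and 2687 CPM in NK-like cells and at 1875 and 1030 CPM in B-like cells, and it was lowest in myeloid cells, at 405 CPM (343 to 474) and 82.3 CPM (55.1 to 118). Of the 11 myeloid BD WTA cells 9 had no Tmsb10 read, and the others had 502 and 37.95 CPM. Among the 10 myeloid TAS-Seq cells 3 had no read, 6 had 30.5 to 211 CPM, and a single cell, at 3355 CPM, supplied most of the reads. No myeloid cell reached the T-like median in either library. For comparison, Cd79a, a B-cell gene, was at 37.0 and 2.84 CPM in the myeloid cells. Gm9844 reads followed the same order as Tmsb10, at 1015 CPM in T-like, 844 in NK-like, 385 in B-like and 74.1 in myeloid TAS-Seq cells.

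Reads of Tmsb4x were 3.75 times those of Tmsb10 in B-like and 2.09 times in T-like TAS-Seq cells, and 5.87 and 3.35 times in BD WTA cells (transcripts of 768 and 690 bases). The ratio reached 53.0 and 252 in myeloid cells.

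Pfn1 was highest in NK-like cells in both libraries, at 2978 CPM in TAS-Seq and 2473 CPM in BD WTA, then in myeloid (2359 and 1847), T-like (2012 and 1590) and B-like cells (1577 and 1224). The order of Cfl1 depended on the library. TAS-Seq gave 2266 CPM in myeloid, 1684 in NK-like, 1501 in T-like and 1118 in B-like cells. BD WTA gave 5872 CPM in NK-like, 4262 in T-like, 4012 in myeloid and 3399 in B-like cells. B-like cells had the lowest Cfl1 in both.

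Of the Arp2/3 subunits, Arpc1b and Arpc2 were highest in myeloid cells in both libraries. Arpc1b was at 1798 CPM (1666 to 1939) in myeloid, 667 (622 to 716) in NK-like, 369 in T-like and 363 in B-like TAS-Seq cells. BD WTA gave 1405, 396, 245 and 248 CPM, so T-like and B-like cells were within 1.02-fold of each other in both libraries. Arpc2 was at 2512 CPM in myeloid, 889 in NK-like, 637 in T-like and 653 in B-like TAS-Seq cells, and at 2491, 1079, 875 and 718 CPM in BD WTA cells. Arpc3 was the member with a lower T-like than B-like level in both libraries, at 217 against 265 CPM in TAS-Seq and 160 against 200 CPM in BD WTA. Its highest class was NK-like in TAS-Seq (630 CPM, 585 to 677) and myeloid in BD WTA (707 CPM, 622 to 800).

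Coro1a varied least among the lymphocyte classes. It was at 1427 CPM in T-like, 1273 in B-like and 1119 in NK-like TAS-Seq cells, and at 1369, 1106 and 1054 CPM in BD WTA cells. Myeloid cells had 1690 CPM in TAS-Seq and 2571 CPM in BD WTA.

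**Figure D2:**
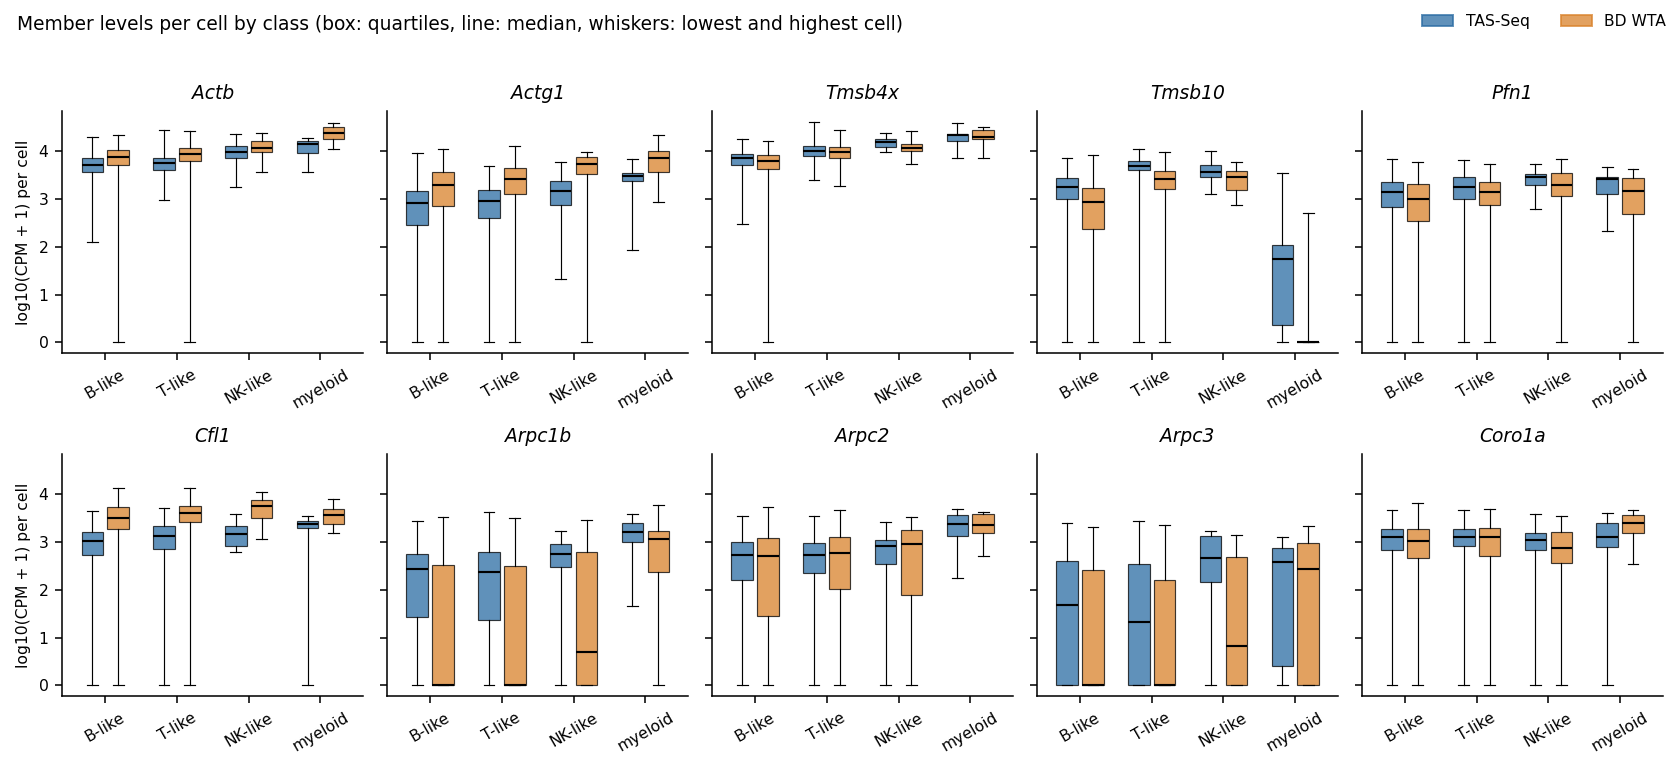
Log10(CPM + 1) per cell of each of the 10 genes, by class and library (box: quartiles, line: median, whiskers: lowest and highest cell). Tmsb10 falls away in myeloid cells, where its pooled level was 405 CPM in TAS-Seq and 82.3 CPM in BD WTA, while Arpc1b and Arpc2 are highest there.

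Most of these steps lay between classes whose cells overlapped. For 6 of the 10 genes the order of the 4 classes was the same in both libraries, 6 were highest in myeloid cells in both, and 5 were lowest in B-like cells in both. The same counts were not made over all genes, so they describe these 10 only. Of the 60 pairs of neighbouring classes (3 pairs for each gene and library) 52 had interquartile ranges of per-cell CPM that overlapped, and 8 did not. The 8 were the myeloid step over NK-like cells for Actb and Tmsb4x in BD WTA and for Actg1, Arpc1b and Arpc2 in TAS-Seq, the NK-like step over B-like cells for Tmsb10 in TAS-Seq, and the B-like step over myeloid cells for Tmsb10 in both libraries. The other neighbours overlapped by this rule, which does not make their levels equal. For Tmsb10 in BD WTA, 25 of the 26 NK-like cells lay above the B-like median. For Tmsb4x 84.3% of the T-like TAS-Seq cells lay above the B-like median, and for Actg1 53.6% did.

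The comparison of T-like with B-like cells asked which of the genes distinguish the main lymphocyte classes. Tmsb10 was 2.67-fold higher in T-like cells in TAS-Seq and 2.81-fold in BD WTA (log2 ratios 1.42 and 1.49). In TAS-Seq 94.9% of the T-like cells, 260 of 274, lay above the B-like median of Tmsb10 per cell, and in BD WTA 91.0% of 279 did. Tmsb4x was 1.49-fold and 1.60-fold higher, on either side of the threshold used. With a fold of at least 1.5 in the same direction in both libraries as the mark of a difference, and at least 10 CPM in a class, all 10 genes could be judged, 1 (Tmsb10) was higher in T-like cells and 0 were lower. Over all 9058 genes judged in this way 11.7% were higher and 17.3% lower in T-like cells, so 1 of 10 is near the background. The median log2 ratio of the 10 genes was 0.23 in TAS-Seq and 0.32 in BD WTA, beside -0.11 and 0.00 over all genes judged. The other members had log2 ratios of 0.14 and 0.32 (Actb), 0.30 and 0.36 (Actg1), 0.35 and 0.38 (Pfn1), 0.43 and 0.33 (Cfl1), 0.16 and 0.31 (Coro1a), 0.02 and -0.02 (Arpc1b), -0.03 and 0.29 (Arpc2), and -0.29 and -0.33 (Arpc3). With TMM factors, which raised every ratio of T-like over B-like cells by 0.13 in TAS-Seq and 0.06 in BD WTA, Tmsb4x passed too and the count was 2. Adding the reads of near copies left Tmsb10 at log2 ratios of 1.42 and 1.499.

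Other genes of the actin pathway were counted from a list of 130, of which 127 were found in a table and 98 had at least 10 CPM. Of these, 11 were higher and 18 lower in T-like cells in both libraries, with median log2 ratios of -0.10 in TAS-Seq and 0.10 in BD WTA. These shares of the 98 are close to the 11.7% and 17.3% over all genes judged. The groups within the list are small, and their counts are given as a description only. The crosslinkers and bundlers held 4 of those higher (Actn1, Tagln2, Cnn2 and Iqgap2) and 1 of those lower (Iqgap1), out of 11 judged. Activators of the Arp2/3 complex held 0 higher and 4 lower of 11 (Nckap1l, Abi3, Cyfip1 and Hcls1). Among genes with at least 50 CPM in a class, those furthest to the T-like side were Actn1, an alpha-actinin that crosslinks filaments (266.5 against 16.7 CPM in TAS-Seq and 554 against 15.2 CPM in BD WTA), Iqgap2 (53.3 against 1.18 and 57.8 against 4.44), Zyx, a focal adhesion protein (149 against 42.5 and 133 against 25.5), Tagln2 and Myl6, a myosin light chain. Tagln2 was 3.12-fold and 3.48-fold higher, and Myl6 1.83-fold and 2.12-fold. Furthest to the B-like side were the class I myosins Myo1e (log2 ratios -4.60 and -6.01) and Myo1c (-4.26 and -3.20), the filament-capping gene Capg (-2.85 and -2.22), Arpc5l, an alternative form of an Arp2/3 subunit (-1.51 and -1.47), and Iqgap1 (-1.14 and -1.22). The IQGAP scaffold genes thus lay at opposite ends. Most of the Arp2/3 subunits outside the 10 differed little between the classes: Actr3 had log2 ratios of -0.02 and 0.01, and Arpc4 of 0.01 and 0.26.

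**Figure D3:**
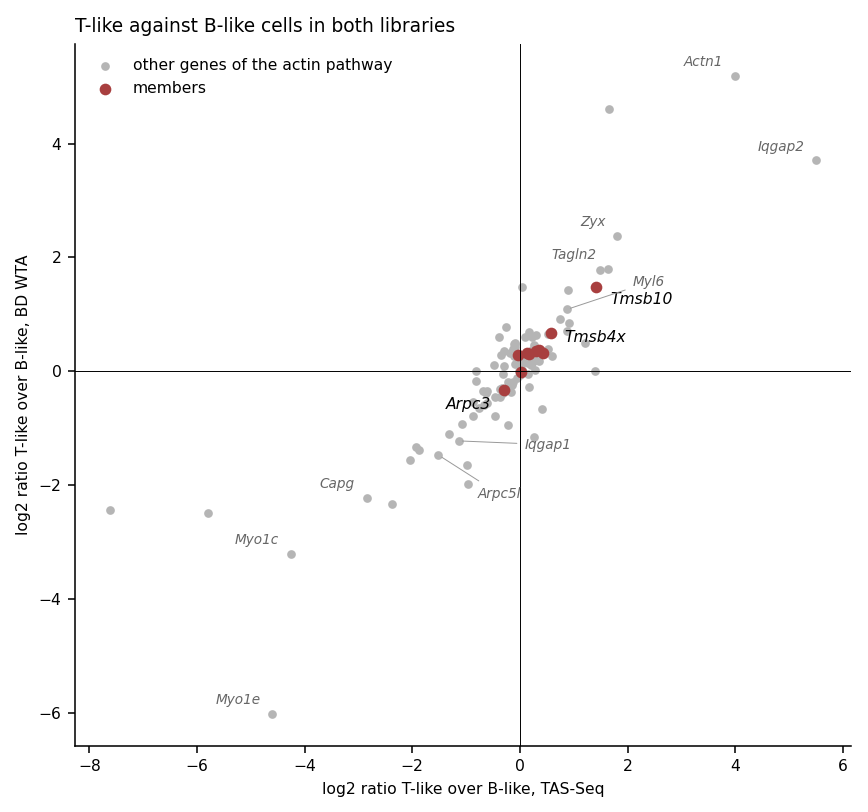
Log2 ratio of pooled CPM of T-like over B-like cells in TAS-Seq (x axis) and BD WTA (y axis) for the 10 members (red) and the other judged pathway genes read in both classes (grey). Tmsb10 is the member furthest from 0, at 1.42 and 1.49, while several other pathway genes, such as Actn1 (3.99 and 5.19) and Myo1e (-4.60 and -6.01), lie much further out.

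Natural killer cells are cytotoxic lymphocytes, and the comparison with T-like cells places them among the lymphocytes. In NK-like cells Arpc3 was 2.90-fold higher in TAS-Seq and 1.96-fold in BD WTA, Arpc1b 1.81-fold and 1.62-fold, and Actg1 1.57-fold and 1.63-fold. These 3 of the 10 passed a fold of 1.5 in both libraries and 0 were lower, while 17.5% of the 8697 genes judged were higher and 18.1% were lower. The median log2 ratio of the members was 0.52 and 0.46, beside 0.05 and 0.02 over all genes judged. Actb was 1.79-fold higher in TAS-Seq and 1.37-fold in BD WTA, and Pfn1 1.48-fold and 1.56-fold. Tmsb10 (log2 ratios -0.30 and -0.11) and Coro1a (-0.35 and -0.38) were the members with lower levels in NK-like cells. TMM factors shifted every ratio down by 0.38 in TAS-Seq and 0.35 in BD WTA, after which 1 member was higher (Arpc3) and 1 lower (Coro1a). In BD WTA, Arpc1b had no read in 13 of the 26 NK-like cells, and its log2 ratio of 0.69 was -0.03 after thinning to 20000 reads. Arpc3 also had no read in 13 of these 26 cells, and none in 173 of the 279 T-like BD WTA cells. Its mean of per-cell CPM in BD WTA was 226 in NK-like and 155 in T-like cells, short of a fold of 1.5. Arpc1b, at 374 and 243 CPM by that mean, stayed past it. Of the other pathway genes 18 were higher and 6 lower of 93 judged, with Zyx at 611 and 422 CPM in NK-like cells.

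Myeloid cells were compared with B-like cells, the largest class. Arpc1b was 4.95-fold higher in TAS-Seq and 5.67-fold in BD WTA, Arpc2 3.85-fold and 3.47-fold, Actg1 3.57-fold and 3.48-fold, Tmsb4x 3.05-fold and 3.43-fold, Actb 2.49-fold and 3.23-fold, and Arpc3 1.77-fold and 3.53-fold. Tmsb10 was 4.63-fold and 12.5-fold lower. Thus 6 of the 10 members were higher and 1 was lower in both libraries, against 12.8% higher and 54.6% lower among the 8748 genes judged. The median log2 ratio was 1.17 and 1.73, beside -2.498 and -4.64 over all genes judged. A gene could be judged through its B-like level alone, and no background matched to the levels of the 10 was computed. Cfl1 was 2.03-fold higher in TAS-Seq and 1.18-fold in BD WTA, Pfn1 1.496-fold and 1.51-fold, and Coro1a 1.33-fold and 2.32-fold. The myeloid values rest on 378117 and 352404 reads of 10 and 11 cells, beside 19538912 and 15545626 reads of B-like cells. Other pathway genes with high myeloid levels were Lcp1, an actin-bundling plastin of leukocytes, at 2539 and 2534 CPM against 851 and 899 CPM in B-like cells, and Hcls1 at 492 and 621 CPM against 204 and 167 CPM, whereas Evl, a protein of filament tips, was at 5.29 and 0 CPM against 194 and 109 CPM. Among the 96 pathway genes judged, 27 were higher and 22 lower. Another way to form the class, by the markers of each cell, took 19 and 20 cells with macrophage and dendritic markers among them, and then Tmsb10 gave log2 ratios of -0.71 in TAS-Seq and 0.40 in BD WTA, so the low level above is that of the neutrophil-like cluster.

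Clusters within the classes were compared as well. Among the 4 T-like clusters the share of reads of the 10 genes ran from 2.77% to 3.06% in TAS-Seq and from 3.18% to 3.66% in BD WTA. Tmsb10 was at 5229 and 3029 CPM in cluster 0, which was led by T-cell receptor genes, Tcf7 and Cd4, and at 4931 and 2682 CPM in cluster 10, which expressed Il2rb, Ccl5 and Nkg7. Cluster 7, the shallowest T-like cluster, had the lowest Tmsb10 (3116 and 2423 CPM) and the highest Actb (7200 and 11334 CPM). Coro1a was lowest in cluster 10 in both libraries (1151 and 1134 CPM). Among the 6 B-like clusters, cluster 3, led by Cr2 and Plac8, had Tmsb10 at 1145 and 818 CPM. The other B-like clusters ran from 1742 to 2511 CPM in TAS-Seq and from 447 to 1442 CPM in BD WTA. Cluster 9, led by Iglc2 and Fcmr, had the lowest value in BD WTA, 447 CPM, together with the lowest share of the 10 genes, 1.52%, but in TAS-Seq it had 2.002%, so that its low values were seen in 1 library. The lower Tmsb10 of cluster 3 than of clusters 2, 4, 5 and 8 was seen in both.

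Clusters with no class name also differed. Cluster 6, led by the proliferation genes Stmn1, Top2a and Mki67 (13 cells in each library), had 3.399% and 3.94% of its reads on the 10 genes, and Actg1 at 1958 and 5382 CPM. Cluster 13 (15 and 18 cells), led by Fcer1g, Tyrobp, Cst3 and Mpeg1, had Tmsb4x at 14386 and 15855 CPM and Tmsb10 at 1186 and 1766 CPM. Its Tmsb10 level lay above that of the myeloid cluster in both libraries.

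**Figure D4:**
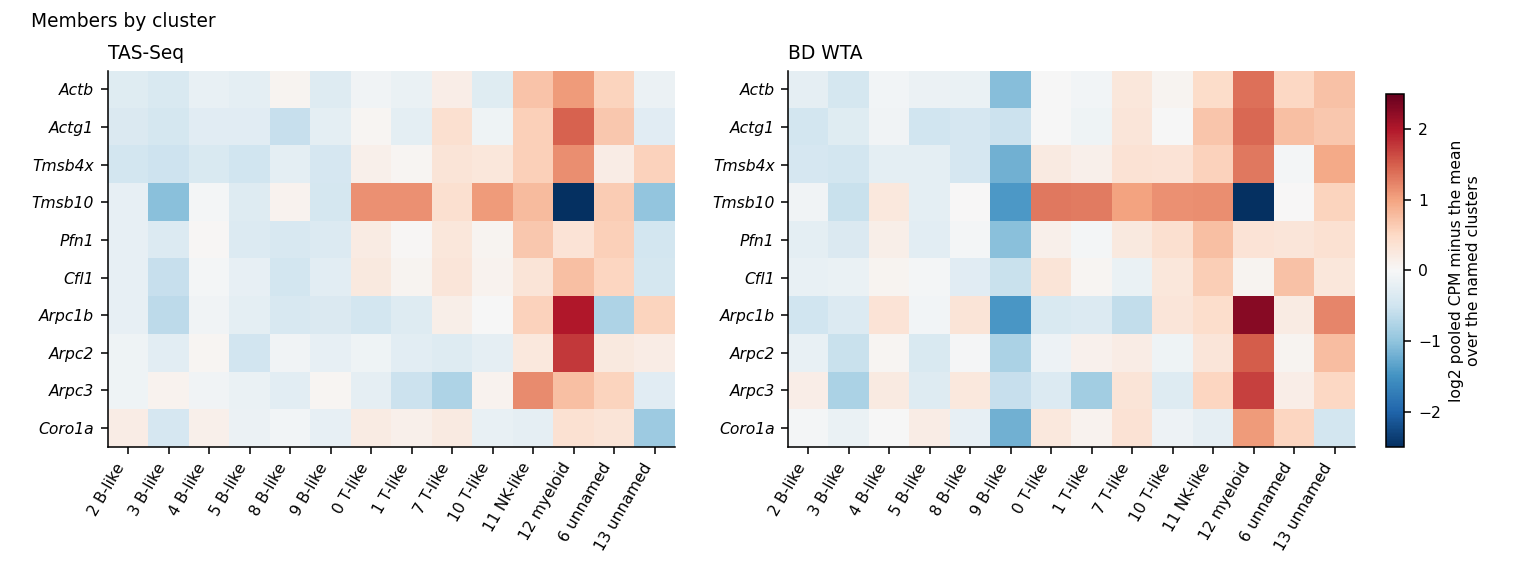
Log2 pooled CPM of each gene in each cluster minus its mean over the named clusters, in TAS-Seq (left) and BD WTA (right). Red is above and blue below that mean, and colours stop at 2.5. Tmsb10 is above the mean in the T-like and NK-like clusters and below it in the myeloid cluster in both libraries.

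The comparison of methods within a class asked how far the amplification changes the measured level. Cfl1 and Actg1 were lower in TAS-Seq in every class compared. Cfl1 was at 1118 CPM in TAS-Seq and 3399 CPM in BD WTA in B-like cells, 3.04-fold lower, and at 1501 and 4262 CPM in T-like cells, 2.84-fold lower. Actg1 was at 956 and 2475 CPM in B-like cells, 2.59-fold lower, and at 1174 and 3174 CPM in T-like cells, 2.70-fold lower. The gap was of the same size in NK-like cells, at 3.49-fold for Cfl1 and 2.82-fold for Actg1. Tmsb10 was higher in TAS-Seq, by 1.82-fold in B-like, 1.73-fold in T-like and 1.51-fold in NK-like cells. Actb was 1.40-fold lower in TAS-Seq in B-like and 1.58-fold lower in T-like cells, and Arpc1b 1.47-fold and 1.51-fold higher. Tmsb4x, Coro1a, Pfn1, Arpc2 and Arpc3 differed by less than 1.5-fold in both of these classes.

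In B-like cells 1 of the 10 genes was past a fold of 1.5 on the TAS-Seq side and 2 on the BD WTA side, against 27.5% and 15.4% of the 9855 genes judged. In T-like cells 2 and 3 of the 10 were, against 26.0% and 20.8% of 9552 genes. The median log2 ratio of the members was 0.21 in B-like and 0.09 in T-like cells, beside 0.16 and 0.06 over all genes judged. The genes that share most sequence kept their direction when the reads of near copies were added: the log2 ratios of TAS-Seq over BD WTA in B-like cells were 1.02 for Tmsb10 (0.86 without) and -1.30 for Actg1 (-1.37 without). The libraries differ in depth, and at 20000 reads per cell those of Cfl1, Actg1 and Tmsb10 were -1.60, -1.34 and 0.81.

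Among the other pathway genes 20 were higher and 10 lower in TAS-Seq of 97 judged in B-like cells, and 13 and 15 of 96 in T-like cells. Over all genes judged 27.5% were higher and 15.4% lower in B-like cells, and 26.0% and 20.8% in T-like cells. The shares of the pathway list lay below these on both sides. The genes furthest to the TAS-Seq side in both classes were Fermt3 (1.82-fold in B-like and 2.07-fold in T-like cells), Evl (1.78 and 1.86), Myl12a (1.71 and 1.91), Myo1g (1.65 and 2.05) and Actn4 (1.65 and 2.05). On the BD WTA side they were Arpc1a (log2 ratios -1.12 and -1.13), Fmnl1, a formin of leukocytes (-0.86 and -1.20), Rac2 (-0.62 and -0.83), Rhoa (-0.57 and -0.55) and Wdr1, a cofactor of cofilin (-0.71 and -0.52). Arpc1a and Arpc1b, alternative forms of the same Arp2/3 subunit, thus differed between methods in opposite directions, with Arpc1a at 51.3 and 111 CPM and Arpc1b at 363 and 248 CPM in B-like cells of TAS-Seq and BD WTA.

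**Figure D5:**
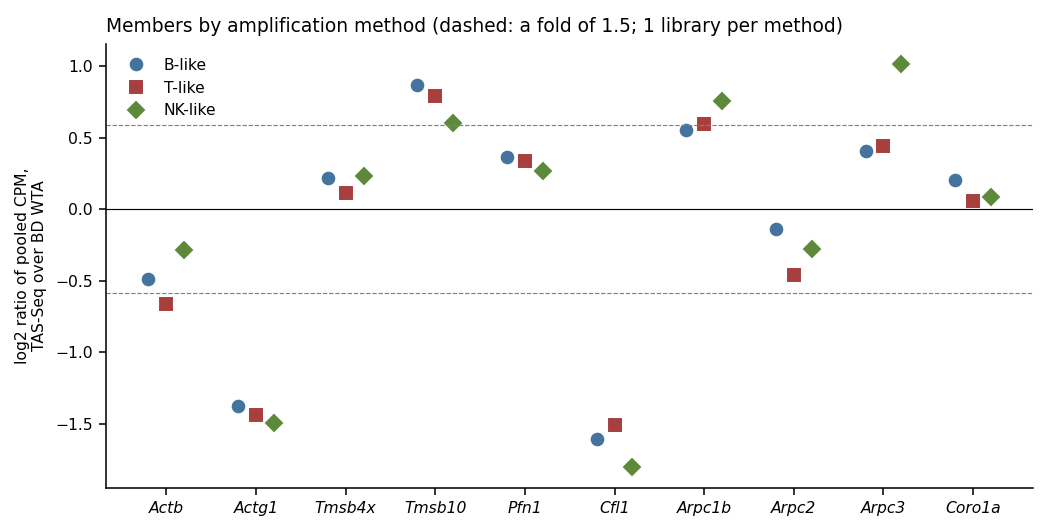
Log2 ratio of pooled CPM of TAS-Seq over BD WTA for each of the 10 genes in B-like, T-like and NK-like cells, with dashed lines at a fold of 1.5. Actg1 and Cfl1 lie between -1.37 and -1.80 in all 3 classes, and Tmsb10 lies between 0.60 and 0.86.

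How many cells held a read of each gene depended on the gene and the library. With each cell thinned to 20000 reads (707 TAS-Seq and 645 BD WTA cells, the 25 and 63 shallower cells left out), Actb and Tmsb4x were found in 100% of TAS-Seq cells and in 99.8% of BD WTA cells. In TAS-Seq 7 of the 10 genes were found in at least 95% of cells, and in BD WTA 3 were (Actb, Tmsb4x and Cfl1). With at least 5 reads asked for, these were Actb, Tmsb4x and Tmsb10 in TAS-Seq and Actb, Tmsb4x and Cfl1 in BD WTA. The share over all genes was not computed. Without thinning, the member whose share moved most was Arpc3 in TAS-Seq, from 54.2% to 59.8%. A single read need not come from the cell's own class: without thinning, Cd79a was read in 77.0% of T-like TAS-Seq cells and 11.8% of T-like BD WTA cells. The Arp2/3 subunits were the least often found: Arpc1b in 76.0% and 42.5% of cells, Arpc2 in 88.7% and 80.0%, and Arpc3 in 54.2% and 41.4%. Actg1, although 2.59-fold higher in BD WTA B-like cells, had at least 1 read at 20000 reads in fewer of them, 86.2% against 93.8% in TAS-Seq. Over all cells the direction depended on the cut. At least 1 Actg1 read was found in 90.5% of BD WTA and 95.6% of TAS-Seq cells, and at least 5 in 87.8% and 80.9%.

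B-like cells differed less in these genes than in most genes with at least 100 CPM, a comparison not matched for level. The coefficient of variation (SD over mean) of CPM at 20000 reads was 0.48 for Actb, 0.42 for Tmsb4x and 0.63 for Tmsb10 over 387 B-like TAS-Seq cells, and 1.51 for Arpc3. All 10 were below the median of 1.79 over the 1806 genes with at least 100 CPM in those cells. In the 327 B-like BD WTA cells they ran from 0.47 (Tmsb4x) to 1.80 (Arpc1b), again below the median over genes, 2.19. In T-like cells Arpc3 was the exception, at 1.68 and 2.16 against medians of 1.61 and 1.96. Tmsb10 was steadier in T-like than in B-like cells, at 0.38 against 0.63 in TAS-Seq and 0.59 against 1.01 in BD WTA, while Actb hardly differed (0.49 against 0.48, and 0.50 against 0.49). A higher level lowers the counting part of this measure. Its share was not tested, either in the difference between T-like and B-like cells or in that from the medians over genes.

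Across the cells of a class the 10 genes moved together only weakly, and these correlations are descriptions of cells that share a library. The median Spearman correlation over the 45 pairs was 0.083 in B-like and 0.080 in T-like TAS-Seq cells and 0.093 and 0.077 in BD WTA cells. The 6 pairs among the actins, Pfn1 and Cfl1 ran from 0.16 to 0.30 in B-like and from 0.082 to 0.30 in T-like TAS-Seq cells, and from 0.21 to 0.32 and from 0.17 to 0.40 in BD WTA cells. Some pairs with Tmsb4x lay within these ranges, such as Tmsb4x with Cfl1 (0.25 in B-like BD WTA cells) and with Pfn1 (0.22 in T-like TAS-Seq cells). Actb with Actg1 reached 0.24 and 0.40 in T-like cells. The Arp2/3 subunits, whose proteins form a single complex, ran from -0.02 to 0.13 and from -0.03 to 0.12 in B-like cells, and the thymosin pair from -0.09 to 0.16 over both classes and libraries. At 20000 reads Arpc3 had a read in 53.7% of B-like TAS-Seq cells and 41.6% of B-like BD WTA cells, and Arpc1b in 41.3% of the latter. How far such low counts lower the correlations was not tested. The sum of the 10 genes was almost unrelated to reads per cell (rho -0.04 and -0.08 in B-like, 0.14 and 0.07 in T-like cells) and was slightly lower in T-like cells with a larger mitochondrial share (-0.21 and -0.19).

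By a fixed rule, the genes most like the summed members across cells were ranked by the lower of their correlations in the 2 libraries, among 547 genes in B-like and 604 in T-like cells found in at least 50% of cells. In B-like cells they included Lrrc58 (rho 0.44 in TAS-Seq and 0.32 in BD WTA), Lcp1 (0.30 and 0.29), Gm15725 (0.41 and 0.25) and Gm9844 (0.31 and 0.24). In T-like cells they were Lrrc58 (0.43 and 0.33), Cd52 (0.29 and 0.29), Cnn2, a calponin (0.26 and 0.28), Gm15725 (0.43 and 0.24) and Myl6 (0.25 and 0.20). Gm15725 and Gm9844 share sequence with Actb and Tmsb10. Lrrc58 does so as well: 429 of its 8574 stretches of 31 bases occur in Actb. The Actb pseudogene Gm15725 (chr16:37882542-37883631, plus strand) lies inside Lrrc58 (chr16:37868389-37888858, plus strand) in GENCODE M21. Lrrc58 held 14294 TAS-Seq and 10451 BD WTA reads, 6.22% and 3.66% of the Actb reads. Lcp1, Cd52, Cnn2 and Myl6 share no such stretch with any of the 10 genes.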

How the data were processed

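The deposited files hold raw read counts per gene and cell barcode, without normalization and without molecular identifiers. The authors trimmed reads with cutadapt (2.10 in the submitters' processing notes), aligned them with Bowtie2 2.4.2 to mouse Ensembl cDNA and ncRNA sequences and chose barcodes by the inflection of their read totals. R 3.6.3 is also named in those notes. The paper's methods describe a subtraction of background reads for TAS-Seq matrices, and whether it was applied to these files is not given in the sources used here. The paper also describes fresh spleen cells and more libraries per method, whereas the sample labels, which were followed, give frozen cells and 1 library per method. Reads of near copies can be assigned to the wrong gene by alignment to transcripts.

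Cells with at least 500 genes and at most 25% mitochondrial reads were kept, and CPM are reads per 1000000 reads of a class. The cells of both libraries were clustered together with scanpy 1.11.5 (2000 variable genes scaled within each library, 20 principal components, 15 neighbours, resolution 1.5), without the 10 genes and the pathway list. A cluster took a class name when at least 3 markers were raised by a log2 difference of at least 1 and were read in at least 50% of its cells. In addition, no other class could have more of its markers among the 10 leading genes of the cluster. Markers were a fixed list, and this naming rule was completed after the clusters were seen. No doublet caller was run. Cells with markers of 2 classes (16 TAS-Seq and 5 BD WTA cells) were left out as an alternative. Cells with both T and NK markers were not among those counted, so this alternative does not check mixing of T and NK cells. Other tools were Python 3.11.15, scipy 1.17.1, numpy 2.4.6, matplotlib 3.10.9 and, for TMM factors, edgeR 4.0.16 in R 4.3.3. Gene positions and sequences came from GENCODE M21 (GRCm38), which is older than the authors' Ensembl release.

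The depth was a median of 46557 TAS-Seq and 38426 BD WTA reads per cell, and with 1 library per method no comparison could be tested. The spleens were pooled, so the spread among mice is unknown. Genes named from the pathway list were the 5 furthest to each side with at least 50 CPM, ranked by the library or class with the smaller ratio, and the genes most like the members were the 5 with the highest correlations, of which 1 in B-like cells is not reported here. Genes beyond this rule (Lcp1, Hcls1, Evl, Zyx in NK-like cells, Actr3 and Arpc4) were named after their values were seen. The 10 genes, the pathway list and the markers were chosen with earlier results of these data known. The scripts were tested on simulated data.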

Additional observations from a re-analysis of the deposited data

How the results depend on the processing

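No paired analysis was possible because a single library was made by each method. Of 168 summary values under the alternatives 135 stayed within the limits set for a change, 33 moved and 0 reversed, and of 640 values of single genes 488, 150 and 2 did. The 2 that reversed were the log2 ratio of Tmsb10 in myeloid over B-like BD WTA cells, at 0.40 with classes from the markers of each cell, and that of Arpc1b in NK-like over T-like BD WTA cells, at -0.034 after thinning to 20000 reads. With a fold of 2 in place of 1.5, 0 members were higher in TAS-Seq in B-like or T-like cells and 0 in NK-like over T-like cells. That fold left 6 pathway genes higher in T-like than B-like cells, 2 higher and 3 lower in TAS-Seq in B-like cells, and 6 higher and 7 lower in T-like cells. With each library clustered alone, 2 members were higher in TAS-Seq in B-like cells, 1 in T-like cells and 1 in NK-like over T-like cells, and 23 pathway genes were lower in TAS-Seq in T-like cells. Classes from the markers of each cell gave 1 member higher in TAS-Seq in T-like cells, 1 higher in NK-like over T-like cells and 0 lower in myeloid than B-like cells. TMM factors gave 2 members higher in T-like over B-like cells, and 1 higher and 1 lower in NK-like over T-like cells. The mean of per-cell CPM gave 1 member higher in NK-like over T-like cells and 20 pathway genes higher in TAS-Seq in T-like cells, and thinning to 20000 reads left 1 member higher in TAS-Seq in T-like cells. The ratio of summed T-like over B-like shares was 1.37 by the mean of per-cell CPM, 1.37 thinned, 1.34 with each library clustered alone, 1.42 by markers of each cell and 1.43 with near copies in TAS-Seq. In BD WTA it was 1.32, 1.33, 1.5004 and 1.33 for the first 4 of these, and 1.39 without cells that carry markers of 2 classes. At 5000 reads, or with at least 5 reads asked for, 3 members were found in 95% of TAS-Seq cells. Shares over all genes are given above for the main setting and a fold of 1.5 only. The counts under the alternatives therefore have no background beside them and only describe these lists. The causes of these changes were not tested.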
